A study of Mus musculus with 2 samples.

Results

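Arg1-high tumor macrophages are macrophages of the grafted tumors that carry transcripts of Arg1, arginase 1, the enzyme that cleaves arginine into ornithine and urea. Members were selected on their own counts, by the same rule in both libraries. A barcode was kept when its mitochondrial share was under 20%, when it held more than 200 and fewer than 8000 genes, and when 7 pancreatic enzyme genes (Clps, Pnlip, Ctrb1, Cela3b, Prss2, Cpb1 and Try4) took under 0.3% of its unique molecular identifiers. Each unique molecular identifier (UMI) counts 1 captured transcript. A kept barcode was a macrophage when Csf1r, Adgre1, C1qa, C1qb, C1qc, Mrc1, Cd68 and Ms4a7 together took at least 0.1% of its UMIs, the C1q genes together had at least 5 UMIs, and Ptprc, the common leukocyte antigen CD45, had at least 1 UMI. Macrophages with 5 or more Arg1 UMIs were the members, and the other macrophages are called Arg1-low. This gave 900 members among 11826 barcodes, 766 of 7582 in the KPCA.FSTKO library and 134 of 4244 in the KPCA.FSTKO_hFSTL3 library. The levels of the genes in the rule are therefore a description of the choice.

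Both libraries were made from omental tumors collected at day 10 after female C57BL/6J mice aged 12 to 16 weeks received an intraperitoneal graft of KPCA cells. KPCA is a mouse fallopian tube epithelial line with altered Trp53, Ccne1 and Akt2, among other alterations, that models high-grade serous ovarian cancer. Fst, the gene of the activin antagonist follistatin, was deleted in the grafted cells of both groups. KPCA.FSTKO_hFSTL3 cells are 1 selected clone of that line with an added human transgene for FSTL3, a secreted relative of follistatin, whose promoter is not given in the sources used here. No treatment and no host alteration is named for these mice. For each genotype, 4 tumors were pooled into 1 single-cell RNA library. Thus no value has a replicate, no test was made, and library and genotype cannot be told apart.

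Macrophages enter tumors largely as blood monocytes and take on states set by cytokines, oxygen and the material they engulf. Arginase draws on the same arginine pool as the inducible nitric oxide synthase Nos2, and arginine loss restrains T cells, which is why Arg1-expressing macrophages are studied as suppressive cells. Arg1 transcription is known to respond to IL-4 and IL-13 and also to hypoxia and lactate.

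Levels are UMIs of a gene summed over the barcodes of a group, given per 1000000 UMIs of that group (CPM). Each interval is an exact 95% interval that covers counting error alone, since barcodes of 1 library are not replicates. Levels were not scaled to transcript length and are compared between groups of barcodes, never between genes. Members held a median of 14180.5 UMIs in KPCA.FSTKO against 6815.5 in Arg1-low macrophages, and 20693.5 against 10616 in KPCA.FSTKO_hFSTL3. Their median mitochondrial share was 3.95% against 5.62% and 3.76% against 5.08%. The files hold 7582 and 4244 barcodes, of which the mitochondrial and gene number limits left 6777 and 4041. The libraries stood apart in pancreatic RNA: the pancreatic limit took out 60 of the remaining barcodes in KPCA.FSTKO and 3380 in KPCA.FSTKO_hFSTL3. Over all barcodes the median mitochondrial share was 3.71% and 10.7%. The 12 barcode sequences found in both libraries included 5 that were a member in 1 of them and 0 that were members in both.

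Of the defining genes of other cells, those of monocytes had the largest sum in members, set mostly by Chil3, which is also a marker named for these cells. The 8 monocyte markers, Chil3 among them, summed to 3341 CPM in KPCA.FSTKO members, 761 CPM in Arg1-low macrophages and 198 CPM in the 3318 barcodes with no Ptprc and no C1q UMI, called Ptprc-negative here. In KPCA.FSTKO_hFSTL3 these sums were 1290, 547 and 148 CPM. Without Chil3, the other markers of this list summed lower in members than in Arg1-low macrophages of both libraries. The part of monocyte RNA in the results was not tested. In KPCA.FSTKO members the 8 T and NK cell markers summed to 3.15 CPM with Gzma at 0, the 9 dendritic cell markers to 13.7 CPM with Xcr1 and Siglech at 0, and the 5 B cell markers to 6.79 CPM. The 5 mast cell markers summed to 5.22 CPM, the 6 endothelial markers to 33.5 CPM and the 5 mesothelial markers to 1.08 CPM with Upk1b and Muc16 at 0. Of 7 neutrophil markers, summed to 102 CPM, Ly6g was at 0. In KPCA.FSTKO Arg1-low macrophages the dendritic cell markers summed to 57.0 CPM, B cell markers to 27.2 CPM and mast cell markers to 13.6 CPM. Neutrophil markers summed to 57.0 CPM there, endothelial markers to 10.9 CPM, and T and NK cell and mesothelial markers to 0. The part of these markers in the comparisons was not tested. Cancer cell markers (10 genes) summed to 424 CPM in members, 758 CPM in Arg1-low macrophages and 3610 CPM in Ptprc-negative barcodes. Fibroblast markers (8 genes) summed to 360 CPM in members and 217 CPM in Arg1-low macrophages. Of the 2145 Hbb-bs UMIs, a globin of red cells, 1 member had 1723.

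In KPCA.FSTKO_hFSTL3 pancreatic RNA was higher in both macrophage groups, and fibroblast RNA in the Arg1-low macrophages. The 15 acinar enzyme genes summed to 1213 CPM in its members and to 2033 CPM in its Arg1-low macrophages, and 0 of the 15 were at 0. In KPCA.FSTKO these sums were 53.6 and 158 CPM. Its Arg1-low macrophages also carried 1824 CPM of fibroblast markers against 240 CPM in its members. Dendritic cell markers summed to 64.1 CPM in these Arg1-low macrophages and 18.1 CPM in these members. A total of 108 members in KPCA.FSTKO and 29 in KPCA.FSTKO_hFSTL3 had 10 or more UMIs of 38 genes that define other cells, as did 4 and 7 Arg1-low macrophages.

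The label was checked on the 6 genes named for these cells, of which Arg1, C1qa, Csf1r and Mrc1 are in the rule itself. Arg1, on chromosome 10 (GRCm38, 24915221 to 24927484, minus strand), stood at 6205 CPM (6161 to 6249.8) in KPCA.FSTKO members and 3831 CPM (3759 to 3903) in KPCA.FSTKO_hFSTL3 members. Arg1-low macrophages held 212 CPM (167 to 264) and 149 CPM (104 to 208). This is above the 16.3 and 22.5 CPM of Ptprc-negative barcodes. Those passed the pancreatic limit and were chosen to lack Ptprc and C1q UMIs, so their level need not be that of free RNA in other barcodes. Over all barcodes, 36.6% had an Arg1 UMI in KPCA.FSTKO and 74.0% in KPCA.FSTKO_hFSTL3. The part of free RNA in the Arg1-low levels was not tested. Barcodes marked by monocyte genes with few C1q UMIs, 42 and 13 in number, lay between, at 1873 and 2528 CPM. The 75 neutrophil-marked barcodes of KPCA.FSTKO held 104 CPM, 15 dendritic cell-marked barcodes 15.7 CPM and 54 T and NK cell-marked barcodes 30.4 CPM. Among the groups compared, Arg1 was highest in the members, which were chosen by it, and next in monocyte-marked barcodes. The rules for the comparison groups were written after the data had been seen.

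The other markers did not all follow Arg1. Chil3, the chitinase-like Ym1, was 9.03-fold (7.56 to 10.9) higher in members than in Arg1-low macrophages of KPCA.FSTKO, at 3016 against 334 CPM. It was 20.4-fold (11.1 to 42.7) higher in KPCA.FSTKO_hFSTL3, at 873 against 42.7 CPM. It was no macrophage gene alone, since monocyte-marked barcodes held 2201 CPM and neutrophil-marked barcodes 2039 CPM in KPCA.FSTKO. F13a1, the coagulation factor XIII A chain of monocytes and resident-type macrophages, was 1.33-fold (1.21 to 1.47) higher in KPCA.FSTKO members and 1.89-fold (1.71 to 2.08) lower in KPCA.FSTKO_hFSTL3 members, so its direction was not shared. The mannose receptor Mrc1 was lower in members of both libraries, at 1403 against 1983 CPM and 1114 against 2280.4 CPM. So was the colony-stimulating factor 1 receptor Csf1r, at 289.7 against 557 CPM and 393 against 628 CPM. C1qa, the complement subunit, was level, at 3059.9 against 2972 CPM in KPCA.FSTKO and 2829.7 against 2839.9 CPM in KPCA.FSTKO_hFSTL3. In KPCA.FSTKO_hFSTL3 the lower Mrc1 was lost, with log2 ratios of 0.0082 and 0.057, when members were set at 0.05% Arg1 or without the pancreatic limit. In KPCA.FSTKO its log2 ratio turned positive with members set at 0.05% Arg1 or at 3 Arg1 UMIs. Mrc1 and F13a1 thus do not mark members off from the Arg1-low macrophages.

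**Figure D1:**
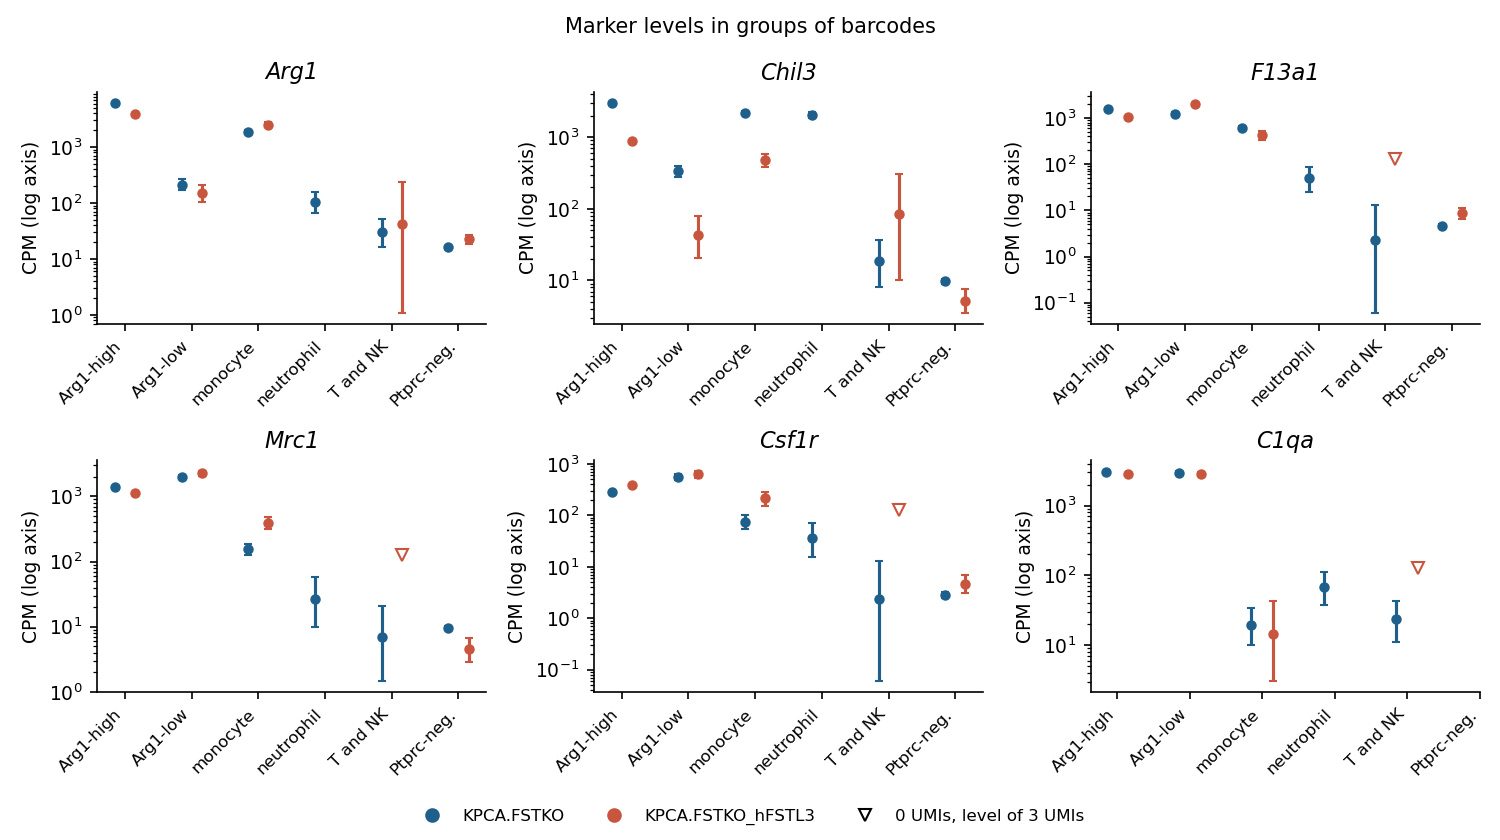
CPM (log axis) of the 6 marker genes in Arg1-high and Arg1-low macrophages, in barcodes chosen by monocyte, neutrophil or T and NK cell genes, and in Ptprc-negative barcodes, for each library, with exact 95% counting intervals and open triangles at the level of 3 UMIs where a group had 0 (C1qa is not drawn in the Ptprc-negative barcodes, which were chosen to lack it). Arg1 ran from 6205 CPM in KPCA.FSTKO members to 16.3 CPM in Ptprc-negative barcodes, whereas C1qa stayed between 2830 and 3060 CPM in the macrophage groups.

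Most macrophages were members: KPCA.FSTKO had a member share of 94.3% (92.5 to 95.8), while KPCA.FSTKO_hFSTL3 had 86.5% (80.0 to 91.4). Without the pancreatic limit the share was 94.0% and 72.7%. The Arg1 count of a member ran from 5 to 412 with a median of 82 in KPCA.FSTKO and from 5 to 413 with a median of 61.5 in KPCA.FSTKO_hFSTL3. In all, 69.2% and 59.0% of members had 50 or more. As a share of a barcode's UMIs, Arg1 took 0.0114% to 1.79% with a median of 0.601% in KPCA.FSTKO. In KPCA.FSTKO_hFSTL3 it took 0.00829% to 1.86% with a median of 0.313%. Few members lay at the cut, against a larger part of the 46 and 21 Arg1-low macrophages. In KPCA.FSTKO 5 members had 5 or 6 Arg1 UMIs at a median depth of 8704 UMIs, and 15 Arg1-low macrophages had 3 or 4 at a median depth of 7899. In KPCA.FSTKO_hFSTL3 these were 9 members at 16201 and 7 Arg1-low macrophages at 15436. Of the Arg1-low macrophages, 13 and 7 had 0 Arg1 UMIs.

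**Figure D2:**
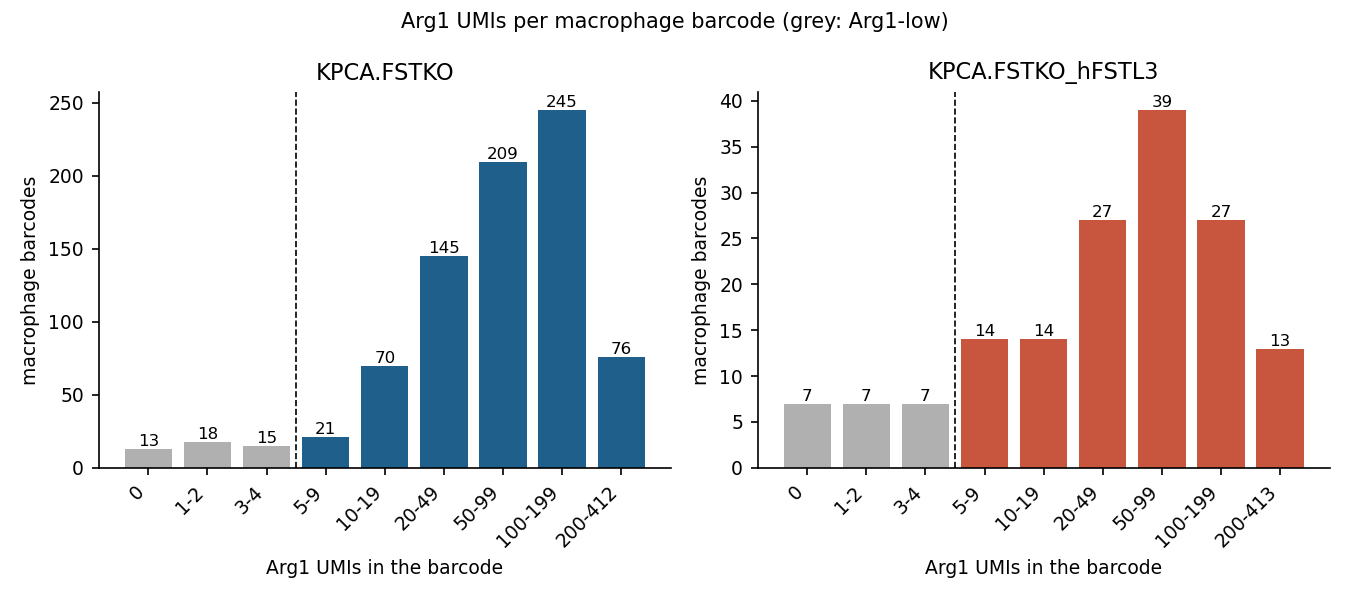
Number of macrophage barcodes by their Arg1 UMI count in each library, with Arg1-low barcodes in grey left of the dashed line at 5 UMIs. In KPCA.FSTKO the tallest bar holds 245 barcodes with 100 to 199 Arg1 UMIs, and 46 macrophages fall left of the line; in KPCA.FSTKO_hFSTL3 it holds 39 barcodes with 50 to 99, and 21 fall left.

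Since members were deeper than Arg1-low macrophages, each barcode was also thinned to 5000 UMIs. An Arg1 UMI was then left in 99.9% of 741 KPCA.FSTKO members, 63.9% of 36 Arg1-low macrophages and 7.63% of 2557 Ptprc-negative barcodes that were deep enough. The 25, 10 and 761 shallower ones were left out. Before thinning, 25.1% of the Ptprc-negative barcodes had an Arg1 UMI at a median depth of 19750.5 UMIs. In KPCA.FSTKO_hFSTL3 the thinned shares were 97.0% of 133 members, 40% of 20 Arg1-low macrophages and 5.81% of 172 Ptprc-negative barcodes, with 1, 1 and 39 left out.

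How members differed from Arg1-low macrophages of the same tumors was the main comparison, in KPCA.FSTKO, with 766 members and 46 Arg1-low macrophages. A gene was counted as higher or lower when it had at least 100 UMIs over both groups and a CPM ratio of at least 2. Arg1 itself and the genes of the macrophage rule were left out. Of 8650 genes, 620 (7.17%) were higher in members and 752 (8.69%) lower, against a median log2 ratio of -0.12 over all genes. The counting interval excluded no change for 313 and 665 of them. Scaling by TMM, which centres a trimmed and weighted mean of log2 ratios and not their median, moved every log2 ratio up by 0.32. The median gene then lay above 0, and the split became 1117 higher and 313 lower. Of the 16 list medians below, those of arginine and complement genes then turned positive, at 0.19 and 0.19. Because the Arg1-low side is small, a gene seen once there has a wide interval, and values are given with it.

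In the arginine pathway, an importer and the competing enzyme Nos2 were higher in members, which were chosen by Arg1. Slc7a2, the cationic amino acid transporter CAT2 that brings arginine into activated macrophages, was 4.17-fold (3.27 to 5.39) higher, at 747 against 179 CPM. Nos2 had 1906 UMIs in members and 0 in Arg1-low macrophages, which puts it at least 19.4-fold higher when 3 UMIs are taken as the floor. Nos2, often set against Arg1 as the mark of an opposed state, was thus higher in macrophages chosen for Arg1. Only a minority of members had a Nos2 UMI, as given below. The spermidine synthase Srm had a log2 ratio of 1.86 (0.30 to 4.14), with 3 UMIs on the Arg1-low side. The other 12 measured genes of this list lay within a ratio of 2, among them the transporter Slc7a1 at -0.13 (-0.99 to 0.88), ornithine aminotransferase Oat at 0.16 (-0.63 to 1.08) and ornithine decarboxylase Odc1 at 0.32 (-0.41 to 1.17). The list had 3 of 15 measured genes higher, 0 lower and a median log2 ratio of -0.13.

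Genes of alternative activation split. Higher in members were Chil3, the eotaxin Ccl24 with a log2 ratio of 2.93 (1.38 to 5.21), and the transglutaminase Tgm2 with 1.76 (1.30 to 2.26). So were fibronectin Fn1 with 1.33 (1.22 to 1.45) and the scavenger receptor Msr1 with 1.19 (0.87 to 1.53). Lower were the C-type lectins Clec10a with -3.14 (-3.59 to -2.66) and Mgl2 with -2.05 (-2.51 to -1.56), and the haptoglobin-hemoglobin scavenger receptor Cd163 with -2.45 (-2.77 to -2.10). The ribonuclease Ear2 was at -1.78 (-2.22 to -1.31) and the chemokine Ccl17 at -2.65 (-3.08 to -2.19). The list thus had 6 of 16 measured genes higher and 6 lower, including Pdcd1lg2 with 1 UMI on the Arg1-low side and Pparg with -1.11 (-1.92 to -0.18). Fn1 was found in 96.7% of thinned Ptprc-negative barcodes and Tgm2 in 21.0%, so of these genes Fn1 is also abundant in the surrounding cells.

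Glycolysis and hypoxia genes stood almost together on the member side. Of 18 measured glycolysis genes 17 had a log2 ratio above 0, 9 were past a ratio of 2 and 0 were lower, with a median of 1.01. The glucose transporter Slc2a1 was 2.09-fold (1.55 to 2.88) higher, glucose-6-phosphate isomerase Gpi1 2.82-fold (2.34 to 3.42) higher and Gapdh 2.46-fold (2.23 to 2.73) higher. Lactate dehydrogenase Ldha was 2.16-fold (1.83 to 2.57) higher and the lactate exporter Slc16a3 2.36-fold (1.59 to 3.66) higher. Pfkfb4 was the exception, at a log2 ratio of -0.85 (-1.54 to -0.08). Of 20 hypoxia-response genes 18 were above 0, 6 were past a ratio of 2 and 0 were lower, with a median of 0.64. Hilpda, a lipid droplet protein induced by hypoxia, was 6.33-fold (4.63 to 8.91) higher, at 671 against 106 CPM. Ankrd37 was 3.89-fold (1.97 to 9.05) higher and the stress gene Ndrg1 2.88-fold (1.96 to 4.42) higher. The angiogenic factor Vegfa was 2.76-fold (1.86 to 4.27) higher, the mitophagy receptor Bnip3 2.29-fold (1.72 to 3.11) higher and the prolyl hydroxylase Egln1 2.45-fold (1.64 to 3.84) higher. Hif1a itself was level, at 0.09 (-0.14 to 0.33).

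Lipid-handling and matrix genes were also on the member side. The lipid-associated list had 7 of 20 genes higher and 0 lower, with a median of 0.67. Osteopontin Spp1 was 4.64-fold (4.25 to 5.08) higher, heme oxygenase Hmox1 4.04-fold (3.20 to 5.18) higher and the fatty acid-binding protein Fabp5 2.56-fold (1.96 to 3.42) higher. The tetraspanin Cd9 was 2.48-fold (1.95 to 3.21) higher, cathepsin Ctsl 2.31-fold (2.05 to 2.62) higher and Gpnmb 2.24-fold (1.35 to 4.01) higher. Fabp4, the last of the 7 beside these, had 320 of its 580 member UMIs in 1 barcode. Trem2, the receptor that names the lipid-associated state, was level at 0.20 (-0.07 to 0.48). Apolipoprotein Apoe was 1.75-fold (1.71 to 1.78) lower, at 14026 against 24478 CPM. Spp1 was abundant outside macrophages too, since Ptprc-negative barcodes held 9146 CPM against 6218 CPM in members and had a UMI in 97.7% after thinning. Among proteases and matrix genes 9 of 19 were higher and 0 lower, with a median of 0.88. Thrombospondin Thbs1 was 8.43-fold (6.75 to 10.7) higher and the metalloprotease Adam8 6.02-fold (4.07 to 9.31) higher. Ecm1 was 3.73-fold (3.06 to 4.59) higher and the metalloelastase Mmp12 2.41-fold (1.86 to 3.17) higher. The values of Mmp8, Mmp9 and Serpinb2 rested on 1 or 2 UMIs of Arg1-low macrophages.

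Chemokines and cytokines showed 10 of 21 measured genes higher and 1 lower, with a median of 0.89. Ccl6 was 3.56-fold (3.25 to 3.90) higher, at 4582 against 1288 CPM, and the neutrophil attractant Cxcl2 3.16-fold (2.58 to 3.93) higher. The monocyte attractant Ccl7 was 3.04-fold (1.77 to 5.73) higher, oncostatin Osm 2.84-fold (1.87 to 4.54) higher and Il1a 2.74-fold (1.44 to 6.02) higher. Il6, with 350 UMIs against 0, was at least 3.56-fold higher. Ccl8 was the gene on the other side, 2.25-fold (1.89 to 2.65) lower. Tnf, at -0.53 (-1.61 to 0.81), and Il1b, at 0.57 (0.02 to 1.18), stayed within a ratio of 2. Of the monocyte list, Chil3, Thbs1, Fn1, the clotting factor F10 at 2.77 (2.12 to 3.50) and Emb at 1.25 (0.82 to 1.72) were higher, and Plac8 and Ms4a4c lower. The chemokine receptors Ccr2, at -0.46 (-0.78 to -0.13), and Cx3cr1, at -0.91 (-1.30 to -0.50), were within a ratio of 2.

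Genes of tissue-resident macrophages and of antigen presentation were mostly on the Arg1-low side. In the resident list 7 of 16 were lower in members and 2 higher, with a median of -0.65. The selenium carrier Selenop was 4.76-fold (4.40 to 5.14) lower, at 419.8 against 1997 CPM, and the TAM receptor ligand Gas6 5.26-fold (3.91 to 6.95) lower. The hyaluronan receptor Lyve1 was 3.53-fold (2.61 to 4.70) lower, Cbr2 4.37-fold (2.98 to 6.23) lower and Fcna 2.60-fold (2.06 to 3.24) lower. Gata6, the factor of peritoneal macrophages, was 2.28-fold (1.12 to 4.20) lower. Exceptions were the scavenger receptor Marco at 3.59 (2.04 to 5.87), with 3 UMIs on the Arg1-low side, and platelet factor Pf4 at 1.32 (1.09 to 1.56). MHC class II had 3 of 11 lower and 0 higher, with a median of -0.75. H2-Aa was 2.12-fold (1.94 to 2.31) lower and H2-Eb1 2.18-fold (1.98 to 2.40) lower. Cd74, the invariant chain, was at -0.75 (-0.83 to -0.67). H2-Aa had a UMI in 48.7% of thinned members, 55.6% of thinned Arg1-low macrophages and 1.99% of thinned Ptprc-negative barcodes.

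The remaining lists gave few genes past a ratio of 2 or rested on few counts, apart from the checkpoint and suppressive genes. Checkpoint and suppressive genes had 5 of 16 higher and 0 lower, with a median of 0.34. The ecto-5'-nucleotidase Nt5e was 8.75-fold (4.75 to 18.3) higher, the PD-1 ligand Cd274 3.24-fold (2.14 to 5.18) higher, Trem1 2.72-fold (1.58 to 5.12) higher and Pilra 2.76-fold (1.72 to 4.75) higher. In the activin and TGF-beta list 2 of 17 were higher, Tgfb3 and Inhba with 1 and 2 UMIs on the Arg1-low side. Another 2 were lower, the activin receptor Acvr2a at -1.23 (-1.81 to -0.58) and Bmpr1a at -1.42 (-2.34 to -0.32), with a median of -0.59. Interferon-stimulated genes had 1 of 17 higher, Rsad2, and 2 lower, Isg20 and Oasl2. Complement had 1 of 10 higher, the integrin Itgam at 1.11 (0.86 to 1.37). Growth factors had 3 of 12 higher, Areg with 1 UMI on the Arg1-low side, Osm and Vegfa, and 2 lower, Igf1 at -1.47 (-2.07 to -0.80) and Gas6. Proliferation genes had 7 of 16 higher with a median of 0.91, yet each of the 7 had 1 to 4 UMIs on the Arg1-low side. With members set at 0.05% Arg1 the median was -0.25. Mki67, at 0.37 (-0.32 to 1.16), and Top2a, at 0.30 (-0.41 to 1.12), were within a ratio of 2.

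**Figure D3:**
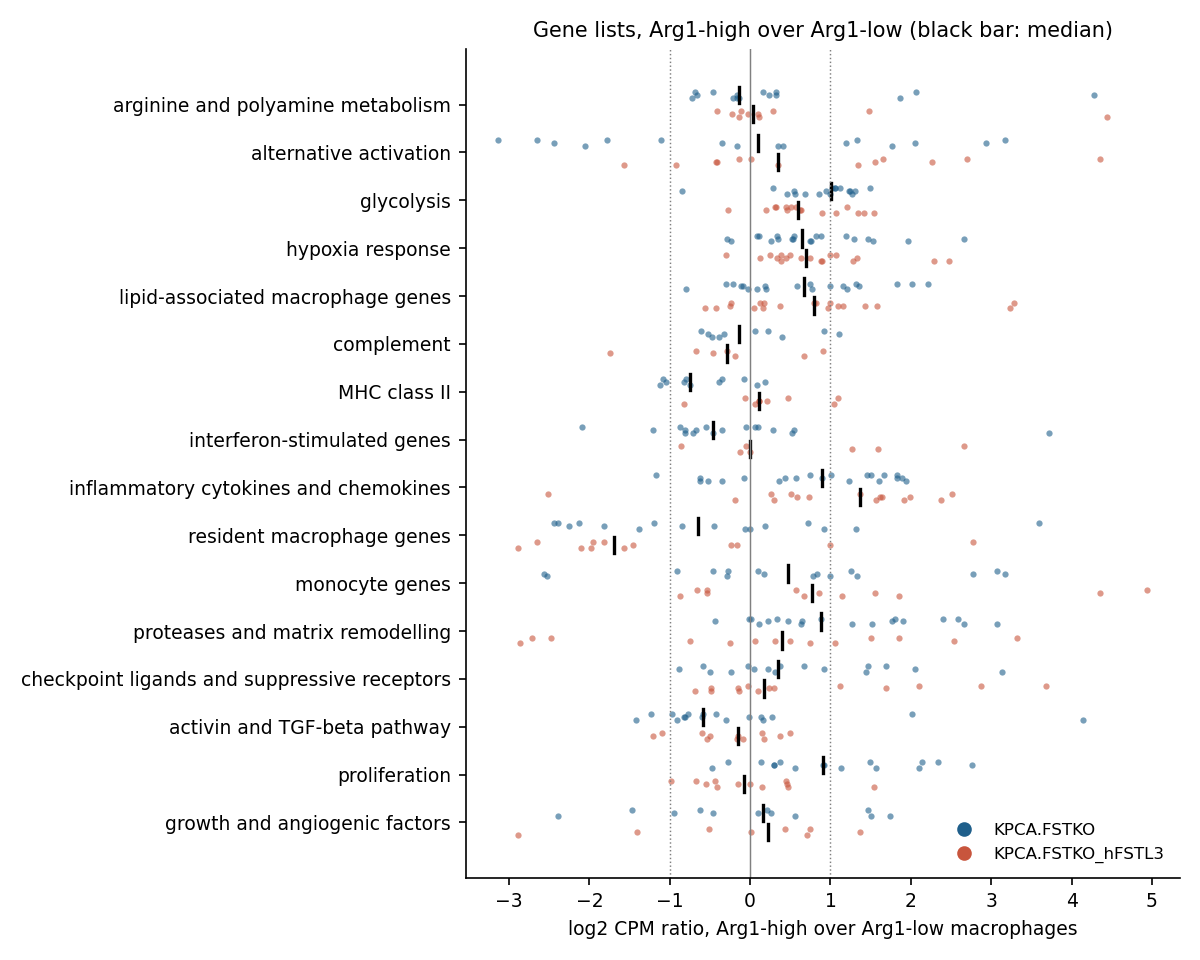
Log2 CPM ratio of Arg1-high over Arg1-low macrophages for every measured gene of 16 lists, with KPCA.FSTKO in blue and KPCA.FSTKO_hFSTL3 in red; each point is a gene, black bars are list medians, dotted lines mark a ratio of 2, and genes with 0 UMIs in Arg1-low macrophages are drawn at the bound that 3 UMIs give. Glycolysis genes lie right of 0, 1 in each library apart, with medians of 1.01 and 0.60, and resident macrophage genes lie mostly left of it with medians of -0.65 and -1.70.

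The largest ratios in KPCA.FSTKO, taken by rank, were mostly genes that Arg1-low macrophages nearly lacked. Wfdc21, a secreted antimicrobial-type protein, had 2605 UMIs in members and 0 in Arg1-low macrophages and was at least 26.5-fold higher. The lipoxygenase Alox15 had a log2 ratio of 4.87 (2.39 to 10.18), the calprotectin subunit S100a8 4.84 (2.36 to 10.15) and clotting factor F7 3.99 (2.76 to 5.61). The glycerol phosphate acyltransferase Gpat3 stood at 3.88 (2.02 to 6.93), Tgfb3 at 4.14 (1.66 to 9.45), the lubricin gene Prg4 at 3.89 (1.40 to 9.19), Rsad2 at 3.73 (1.24 to 9.03) and Ablim1 at 3.63 (1.14 to 8.93). Each had 1 to 5 UMIs on the Arg1-low side, and Rsad2 came to -0.36 when members needed 10 Arg1 UMIs. Hbb-bs and Hba-a1 also ranked among the 12, and 1 member had 80.3% and 75.4% of their UMIs in members. S100a8, a neutrophil gene as well, had a UMI in 41.9% of members and no more than 32 in any of them. Of the 7 neutrophil markers, 6 had UMIs in members and 1, Ly6g, was at 0, while 3 had UMIs in Arg1-low macrophages. The part of neutrophil RNA in the S100a8 value was not tested.

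At the other end, beside Clec10a and Ccl17, stood lysozyme Lyz1 at -2.94 (-3.68 to -2.14), Stard8 at -2.76 (-3.17 to -2.33), Fhit at -2.73 (-3.43 to -1.96), and Plac8 at -2.56 (-3.16 to -1.91). Ms4a4c followed at -2.53 (-3.30 to -1.66), Hs3st1 at -2.52 (-3.32 to -1.62), Kirrel3 at -2.49 (-2.81 to -2.16), Klf5 at -2.49 (-3.02 to -1.92) and Tbc1d4 at -2.46 (-2.96 to -1.92). Kirrel3 and Klf5 were set by 1 Arg1-low barcode, since their log2 ratios came to 0.0062 and 0.016 without it. Hs3st1 had 0 UMIs in the Arg1-low macrophages left without barcodes with 10 or more UMIs of other cells' markers, so its direction rests on those barcodes.

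The same contrast within KPCA.FSTKO_hFSTL3 rests on 134 members and 21 Arg1-low macrophages. Of 4717 genes, 290 (6.15%) were higher in members and 202 (4.28%) lower, with a median log2 ratio of -0.04 over all genes. TMM moved log2 ratios up by 0.29, which gave 489 and 84, and turned the list medians of interferon-stimulated, proliferation and activin genes positive, at 0.28, 0.21 and 0.13. Without the pancreatic limit the counts were 40 and 4. Among 4700 genes measured in both libraries, 100 were higher in both. This is 41.7% of the 240 higher in KPCA.FSTKO and 34.5% of the 290 higher in KPCA.FSTKO_hFSTL3. Lower in both were 72, or 34.1% of 211 and 36% of 200. Over all 4700 genes, 6.17% were higher and 4.26% lower in KPCA.FSTKO_hFSTL3.

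Slc7a2 again went with Arg1, 21.8-fold (11.4 to 47.7) higher, at 837 against 38.4 CPM. Nos2 had 103 UMIs in members and 0 in Arg1-low macrophages, which is at least 2.79-fold higher. With a pancreatic limit of 0.1% the 65 UMIs left in members and 0 in Arg1-low macrophages set no direction. Glycolysis had 5 of 16 genes higher, 15 above 0 and 0 lower, with a median of 0.60. Hypoxia had 5 of 18 higher, 17 above 0 and 0 lower, with a median of 0.69 and Hilpda at 2.48 (1.67 to 3.44). Chemokines had 8 of 15 higher and 1 lower, again Ccl8, with a median of 1.36. Ccl6 was at 1.61 (1.42 to 1.81) and Cxcl2 at 1.92 (1.52 to 2.35). Resident genes had 8 of 12 lower and Marco alone higher, with a median of -1.70. Gas6 stood at -2.89 (-3.28 to -2.51), Lyve1 at -2.65 (-3.00 to -2.30), Selenop at -1.82 (-2.01 to -1.63) and Cbr2 at -1.98 (-2.49 to -1.44).

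F10 led the ranking of this library at 4.94 (3.09 to 7.99), with 2 UMIs on the Arg1-low side, followed by Slc7a2, Chil3 and Cd274 at 3.68 (2.13 to 5.96). Mmp12 at 3.32 (2.34 to 4.54), Fabp5 at 3.28 (2.30 to 4.50) and the lipoprotein lipase Lpl at 3.23 (1.36 to 6.29) were also among the 12 largest. The lowest 12 held Cryab, Bgn, Col3a1, Col1a1, Col1a2, Timp3, Sparc and Csrp2, beside Lifr, Gas6, Lyve1 and Ccl8. Of these, Col3a1 at -3.09 (-3.36 to -2.81), Col1a1 at -2.87 (-3.22 to -2.51) and Col1a2 at -2.86 (-3.29 to -2.43) are on the fibroblast marker list. They moved with the fibroblast markers of the Arg1-low macrophages given above, whose part in this comparison was not tested.

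Antigen presentation did not show the direction it had in KPCA.FSTKO. MHC class II had 2 of 9 higher, Ifi30 at 1.09 (0.78 to 1.42) and Cd80 at 1.05 (0.14 to 2.13), and 0 lower. H2-Aa, at -0.07 (-0.32 to 0.20), and Cd74, at 0.06 (-0.09 to 0.21), were level here; that the libraries differ was not tested. Alternative activation had 6 of 13 higher and 1 lower, with Tgm2 at 2.70 (1.86 to 3.71), Ccl24 at 2.26 (1.33 to 3.40), Cd163 at -1.57 (-2.05 to -1.07) and Mgl2 at -0.14 (-0.82 to 0.62). Lipid-associated genes had 6 of 19 higher and 0 lower (median 0.79), monocyte genes 5 of 12 and 0 (median 0.76), and checkpoint genes 5 of 14 and 0 (median 0.17). Proteases and matrix genes had 5 of 14 and 3 (median 0.40). Arginine genes had 2 of 10 higher and 0 lower (median 0.04), and interferon-stimulated genes 3 of 7 and 0 (median -0.0044). Growth factors had 1 of 8 and 2 (median 0.22), and proliferation genes 1 of 12 and 0 (median -0.07). Complement had 0 of 7 and 1, C4b (median -0.29), and activin and TGF-beta genes 0 of 12 and 2, Acvr1 and Tgfbr2 (median -0.16).

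Since Arg1-low macrophages were few and shallow, members were also ranked among themselves. The 658 KPCA.FSTKO members and 105 KPCA.FSTKO_hFSTL3 members with fewer than 10 UMIs of other cells' markers were ranked and divided into 4 bins of near-equal size by the share of their UMIs that was Arg1, a comparison added after the data had been seen. Summed Arg1 went from 2102 to 4977, 7320 and 11058 CPM over the bins of KPCA.FSTKO and from 924 to 2452, 4514 and 8727 CPM in KPCA.FSTKO_hFSTL3. Median depth went from 11458 to 14598 UMIs from the lowest to the highest bin of KPCA.FSTKO and from 18220 to 21425.5 in KPCA.FSTKO_hFSTL3. The mitochondrial share went from 4.37% to 3.62% and from 3.97% to 3.60%. Their part in the values below was not tested. Marker UMIs of other cells summed to 297, 280, 301 and 275 CPM in KPCA.FSTKO and to 165, 134, 131 and 117 CPM in KPCA.FSTKO_hFSTL3.

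Between the highest and lowest bin of KPCA.FSTKO, 99 of 5592 genes (1.77%) were higher and 152 (2.72%) lower. In KPCA.FSTKO_hFSTL3, 86 of 1822 (4.72%) were higher and 54 (2.96%) lower. TMM moved these log2 ratios up by 0.18 and 0.15, and in KPCA.FSTKO the split became 159 and 93. There, the list medians of arginine and alternative activation genes turned from -0.02 and -0.0042 to 0.17 and 0.18. Of 1819 genes measured in both, 34 were higher in both, 77.3% of the 44 of KPCA.FSTKO and 39.5% of the 86 of KPCA.FSTKO_hFSTL3. A further 30 were lower in both, 58.8% of 51 and 56.6% of 53. In KPCA.FSTKO_hFSTL3, 4.73% of all 1819 were higher and 2.91% lower.

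The arginine importer followed Arg1 step by step. Slc7a2 stood at 414, 763, 911 and 1005 CPM from the lowest to the highest bin in KPCA.FSTKO. In KPCA.FSTKO_hFSTL3 it stood at 542, 613, 910.0 and 1603 CPM. Nos2 went from 27.6 to 287 CPM in KPCA.FSTKO, 10.4-fold (7.89 to 13.9) higher, and had too few UMIs for the count rule in KPCA.FSTKO_hFSTL3. The downstream enzymes Odc1 and Srm stayed within a ratio of 2 in KPCA.FSTKO. Their log2 ratios were -0.24 (-0.64 to 0.17) and 0.43 (-0.12 to 1.01). Both had too few UMIs for the count rule in KPCA.FSTKO_hFSTL3.

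Oxygen and glucose genes were on the higher side in both libraries. In KPCA.FSTKO 9 of 18 hypoxia genes and 4 of 17 glycolysis genes were past a ratio of 2, with medians of 1.00 and 0.95. In KPCA.FSTKO_hFSTL3 7 of 13 and 8 of 13 were, with medians of 1.49 and 1.11. In both, 0 were lower. Bnip3 stood at 135, 291, 336 and 438 CPM in KPCA.FSTKO and 25.8, 90.4, 222 and 257 CPM in KPCA.FSTKO_hFSTL3. Hilpda stood at 297, 637, 847 and 944 CPM and 79.5, 259, 423 and 353 CPM, so in the second library the highest bin was below the third. Gapdh stood at 1512, 2419, 2662 and 3130.4 CPM and 1494, 2040.0, 2686 and 2428 CPM. The oxygen sensor Egln3 was 4.15-fold (3.40 to 5.09) higher and 3.45-fold (2.16 to 5.74) higher in the highest bin. Vegfa was 2.44-fold (2.08 to 2.87) higher and 6.62-fold (3.96 to 11.7) higher, and Mif 2.20-fold (2.04 to 2.38) higher and 2.81-fold (2.32 to 3.40) higher.

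Several secreted and matrix genes were higher at high Arg1 as well. Spp1 stood at 3515, 5266, 6760.5 and 8424 CPM in KPCA.FSTKO and 2257, 2773, 3809 and 5581 CPM in KPCA.FSTKO_hFSTL3. Ccl6 stood at 2737, 4144, 5391 and 6263 CPM and 1578, 2385, 3565 and 4539.9 CPM. F13a1, which had no shared direction against Arg1-low macrophages, followed Arg1 within members of both libraries, at 1114, 1507, 1659 and 2258 CPM and 606, 779, 1519 and 1819 CPM. Adam8 was 3.22-fold (2.89 to 3.59) higher and 6.36-fold (4.55 to 9.10) higher in the highest bin. Thbs1 was 2.61-fold (2.47 to 2.76) higher and 2.20-fold (1.95 to 2.50) higher. Chil3 had no steady course, at 2229.5, 3324, 4617 and 2798 CPM and 586, 1351, 683 and 1210.2 CPM. Mrc1 was flat, with log2 ratios of -0.25 (-0.32 to -0.18) and 0.02 (-0.14 to 0.18).

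Antigen presentation ran the other way in both libraries. Of the MHC class II list 6 of 9 genes were lower in the highest bin of KPCA.FSTKO and 4 of 8 in KPCA.FSTKO_hFSTL3, with 0 above 0 in either and medians of -1.43 and -1.18. H2-Aa stood at 1639, 763, 565 and 412 CPM and 1269.7, 666, 379 and 385 CPM. H2-Eb1 stood at 1389, 568, 453 and 277 CPM and 1061, 472, 259.5 and 256 CPM. Cd74 stood at 4458, 2738, 2026 and 1628 CPM and 3689.9, 1991, 1591 and 1267 CPM. The fractalkine receptor Cx3cr1 stood at 216, 92.2, 44.2 and 44.2 CPM and 423, 166, 109 and 77.0 CPM. The monocyte receptor Ccr2 stood at 311, 195, 142 and 135 CPM and 437, 476, 348 and 156 CPM, and Apoe at 25356, 16317, 12226 and 11519 CPM and 14863, 12537, 9522 and 7488 CPM. These 3 genes were thus highest where Arg1 was lowest, apart from Ccr2 in KPCA.FSTKO_hFSTL3, which peaked in the second bin.

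Proliferation genes were lower at high Arg1. In KPCA.FSTKO 6 of 8 measured genes were lower in the highest bin and 0 higher, with a median of -1.93. In KPCA.FSTKO_hFSTL3 it was 3 of 5 and 0, with a median of -1.28. Mki67 stood at 70.6, 97.5, 49.3 and 18.0 CPM and 133, 112, 225 and 77.0 CPM. The microtubule regulator Stmn1 stood at 111, 115, 47.6 and 32.1 CPM and 238, 188, 179 and 90.2 CPM. The highest bin was the lowest for both genes in both libraries. The chemokine Ccl8 was 8.36-fold (7.12 to 9.86) lower in the highest bin of KPCA.FSTKO, and the TGF-beta receptor Tgfbr1 was 2.38-fold (2.00 to 2.84) lower and 2.95-fold (2.11 to 4.20) lower.

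Between the highest and lowest bin, 1.77% of all genes were higher and 2.72% lower in KPCA.FSTKO, and 4.72% and 2.96% in KPCA.FSTKO_hFSTL3. Among the other lists of KPCA.FSTKO, cytokines and chemokines had the most measured genes and the most past a ratio of 2, in both directions. There the counts higher and lower were 2 and 0 of 12 arginine genes, 2 and 4 of 13 alternative activation genes, 2 and 1 of 19 lipid-associated genes, 0 and 2 of 9 complement genes and 0 and 2 of 9 interferon-stimulated genes. They were 6 and 5 of 20 cytokines and chemokines, 0 and 4 of 12 resident genes, and 2 and 2 of 13 monocyte genes. They were 5 and 0 of 15 proteases and matrix genes, 1 and 0 of 14 checkpoint genes, 1 and 1 of 13 activin and TGF-beta genes, and 1 and 1 of 7 growth factors. In KPCA.FSTKO_hFSTL3 they were 1 and 0 of 3, 5 and 2 of 10, 2 and 0 of 15, 1 and 0 of 5, and 0 and 0 of 1 for the first 5 of these lists. They were 4 and 1 of 11, 2 and 0 of 6, 3 and 2 of 11, 4 and 0 of 9, 0 and 1 of 11, 1 and 1 of 3, and 1 and 0 of 3 for the other 7, in the same order.

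**Figure D4:**
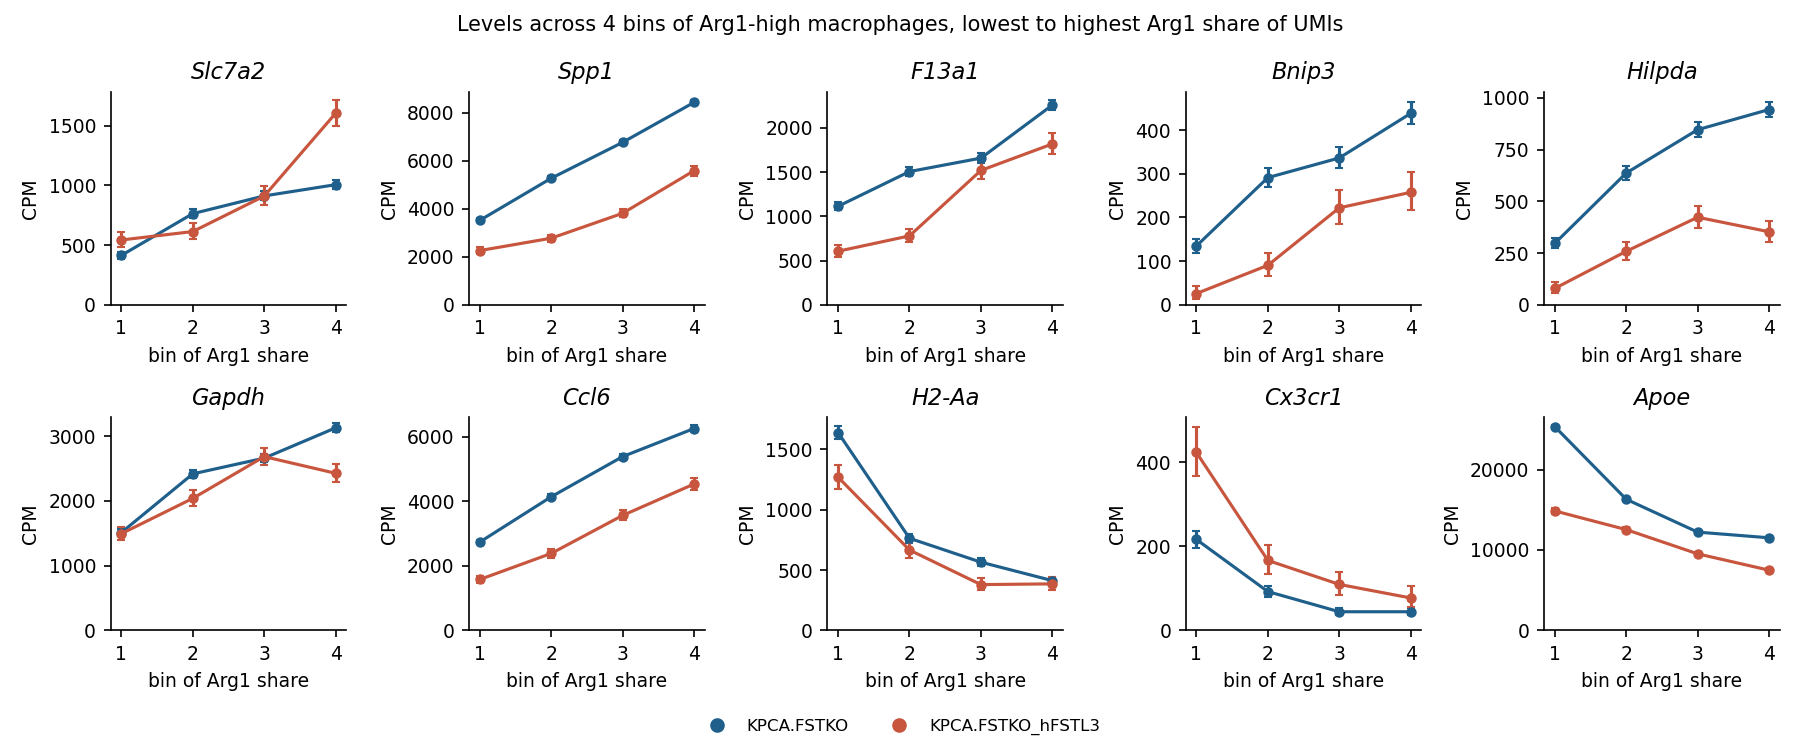
CPM of 10 genes in the 4 bins of Arg1-high macrophages from the lowest (1) to the highest (4) Arg1 share of UMIs, for each library, with exact 95% counting intervals. Slc7a2, Spp1, F13a1, Bnip3 and Ccl6 are higher in bin 4 than in bin 1 in both libraries, and H2-Aa, Cx3cr1 and Apoe are lower.

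Ranked by ratio, the genes at the ends of this order in KPCA.FSTKO were Hbb-bs, Hba-a2, Hbb-bt and Hba-a1, set by 1 member, which had 1723 of the 1751 Hbb-bs UMIs of the highest bin. Then came Nos2, Ackr3 at 2.31 (1.79 to 2.87), Il6 at 2.12 (1.35 to 2.99), Egln3 and the metallothionein Mt2 at 2.03 (1.90 to 2.16). Thrombomodulin Thbd was 4.03-fold (2.82 to 5.90) higher, and Cxcl3, at 1.96 (1.31 to 2.68), was also on this side. Lowest were Ccl17, whose 243 UMIs were all in the lowest bin, Fcrls at -3.49 (-4.20 to -2.85), the adhesion molecule Vcam1 at -3.18 (-3.54 to -2.85) and Ccl8. In KPCA.FSTKO_hFSTL3 the acute-phase gene Saa3, at 5.00 (4.06 to 6.14), and the protease inhibitor Slpi, at 5.04 (3.98 to 6.37), were first. They had 129 of 305 and 119 of 244 UMIs of the highest bin in 1 barcode. Bnip3, Rgcc at 3.22 (2.49 to 4.03) and Vegfa followed, and Retnla, Tmem176a at -2.97 (-3.93 to -2.12), Hist1h1b and Cd83 at -2.66 (-3.12 to -2.22) were last. Tmem176a and Cd83 were lower in KPCA.FSTKO too, at -1.90 (-2.22 to -1.59) and -1.40 (-1.61 to -1.20).

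Over single members the marker genes were spread unevenly. C1qa had a UMI in 99.5% of KPCA.FSTKO members and Mrc1 in 97.9%. F13a1 had one in 80.2%, Slc7a2 in 85.2%, Chil3 in 69.5% and Nos2 in 32.2%. After thinning, Slc7a2 was found in 74.5% of members, 25% of Arg1-low macrophages and 6.14% of Ptprc-negative barcodes. Chil3 was found in 61.3%, 16.7% and 4.93%, and Nos2 in 25.1%, 0% and 0.587%. Among 36 thinned Arg1-low macrophages, 0 with a Nos2 UMI allows a share with a UMI of up to 8.33%, taking 3 barcodes as the floor, and sets no limit on how many express the gene.

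A small number of members held most of some transcripts. The 76 members with most UMIs of a gene held 55.5% of the Chil3 UMIs, 39.5% of those of Slc7a2 and 71.4% of those of Nos2. They held 81.6% of those of Mmp12 and 88.3% of those of Saa3, against 25.2% for C1qa. Marco had all its UMIs in 52 members and Lyve1 in 71, so these genes mark subsets. Gene pairs were taken over 633 of the 741 KPCA.FSTKO members and 104 of the 133 KPCA.FSTKO_hFSTL3 members deep enough for 5000 UMIs. After thinning, Spearman's rho was 0.86 and 0.85 between H2-Aa and Cd74 and 0.62 and 0.67 between C1qa and Apoe. It was 0.44 and 0.40 between Arg1 and Pgk1, and 0.32 and 0.51 between Arg1 and Slc7a2. These are a description, since the members of a genotype share 1 library.

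Members of the 2 libraries were then set side by side, where genotype, tumor pool and library cannot be told apart. Of 9145 genes, 149 (1.63%) were higher in KPCA.FSTKO_hFSTL3 members and 147 (1.61%) lower, with a median log2 ratio of 0.08 over all genes. TMM moved log2 ratios by -0.11 and turned the list medians of MHC class II, interferon-stimulated and activin genes to -0.04, -0.05 and -0.0065. Without the pancreatic limit the counts were 1948 and 2058. The 5 largest ratios were of pancreatic acinar genes, Ctrl, Clps, Pnlip, Sycn and 2210010C04Rik. Their log2 ratios were 6.08, 5.76, 5.67, 5.62 and 5.17, and they moved with the acinar RNA given above. The 5 smallest were Pcdh17, Pcdh9, Ralyl, E030018B13Rik and Clca3a1, at -5.09, -4.45, -4.08, -3.92 and -3.86, each with 1 to 7 UMIs in KPCA.FSTKO_hFSTL3. Pcdh9 was higher in Ptprc-negative barcodes than in members in both libraries, at 405 and 145 CPM against 53.0 and 2.43 CPM.

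Within the members, several inducible genes were lower in KPCA.FSTKO_hFSTL3. Chil3 was 3.45-fold (3.32 to 3.60) lower, Nos2 4.41-fold (3.62 to 5.43) lower, Ecm1 2.30-fold (2.17 to 2.44) lower and Hilpda 2.35-fold (2.19 to 2.53) lower. Arg1 was 1.62-fold (1.59 to 1.65) lower and Slc7a2 nearly level, at a log2 ratio of 0.16 (0.10 to 0.23). All 18 measured glycolysis genes and all 20 hypoxia genes had log2 ratios below 0, with medians of -0.40 and -0.40. Of these, 0 and 2, Hilpda and Adm, were past a ratio of 2. Mt2, the metallothionein, was 3.98-fold (3.66 to 4.33) lower, Saa3 2.95-fold (2.74 to 3.17) lower and Vcam1 7.38-fold (5.38 to 10.4) lower. Mt2, Saa3 and Vcam1 were named here after their values had been seen.

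Higher in KPCA.FSTKO_hFSTL3 members were proliferation genes. All 16 had log2 ratios above 0, 7 were past a ratio of 2 and the median was 0.99. Top2a was 2.32-fold (2.03 to 2.64) higher, Stmn1 2.12-fold (1.89 to 2.38) higher and Mki67 1.96-fold (1.72 to 2.23) higher. Beside this, members of KPCA.FSTKO_hFSTL3 had the smaller Arg1 share, and proliferation genes were lower at high Arg1 within each library. The part of the Arg1 share in this difference was not tested. Ccl24 was 2.96-fold (2.65 to 3.32) higher, Igf1 2.45-fold (2.01 to 2.98) higher, Mgl2 2.62-fold (2.19 to 3.12) higher and Cbr2 2.09-fold (1.68 to 2.59) higher. Without the pancreatic limit Mgl2 and Cbr2 had log2 ratios of -0.46 and -0.57. Retnla, the resistin-like gene of IL-4-stimulated macrophages, had a log2 ratio of 3.31 (2.91 to 3.72), but 158 of its 175 UMIs in KPCA.FSTKO_hFSTL3 were in 1 member. Without that member its log2 ratio was -0.053.

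The other lists had medians on both sides of 0, and that of growth factors was the largest in size. Of 17 measured activin and TGF-beta genes, 0 were past a ratio of 2, with a median of 0.11. The list is wider than activin A, a main ligand that FSTL3 binds. Inhbb, Fst, Fstl3, Acvr2b and Tgfb2 had too few UMIs to be measured. Acvr2a was at 0.13 (-0.22 to 0.46), Tgfbr1 at 0.38 (0.20 to 0.55) and Tgfbr2 at -0.08 (-0.28 to 0.11). MHC class II had 0 of 11 past it (median 0.08). The genes higher and lower were 1 and 1 of 16 arginine genes (median 0.13), 3 and 3 of 17 alternative activation genes (0.18) and 0 and 2 of 20 lipid-associated genes (-0.19). They were 0 and 1 of 10 complement genes (-0.16), 0 and 2 of 19 interferon-stimulated genes (0.06), 0 and 3 of 21 cytokines and chemokines (-0.02) and 1 and 2 of 16 resident genes (-0.03). They were 0 and 2 of 16 monocyte genes (-0.17), 2 and 3 of 19 proteases and matrix genes (-0.18), 0 and 1 of 16 checkpoint genes (-0.01) and 2 and 0 of 12 growth factors (0.67).

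**Figure D5:**
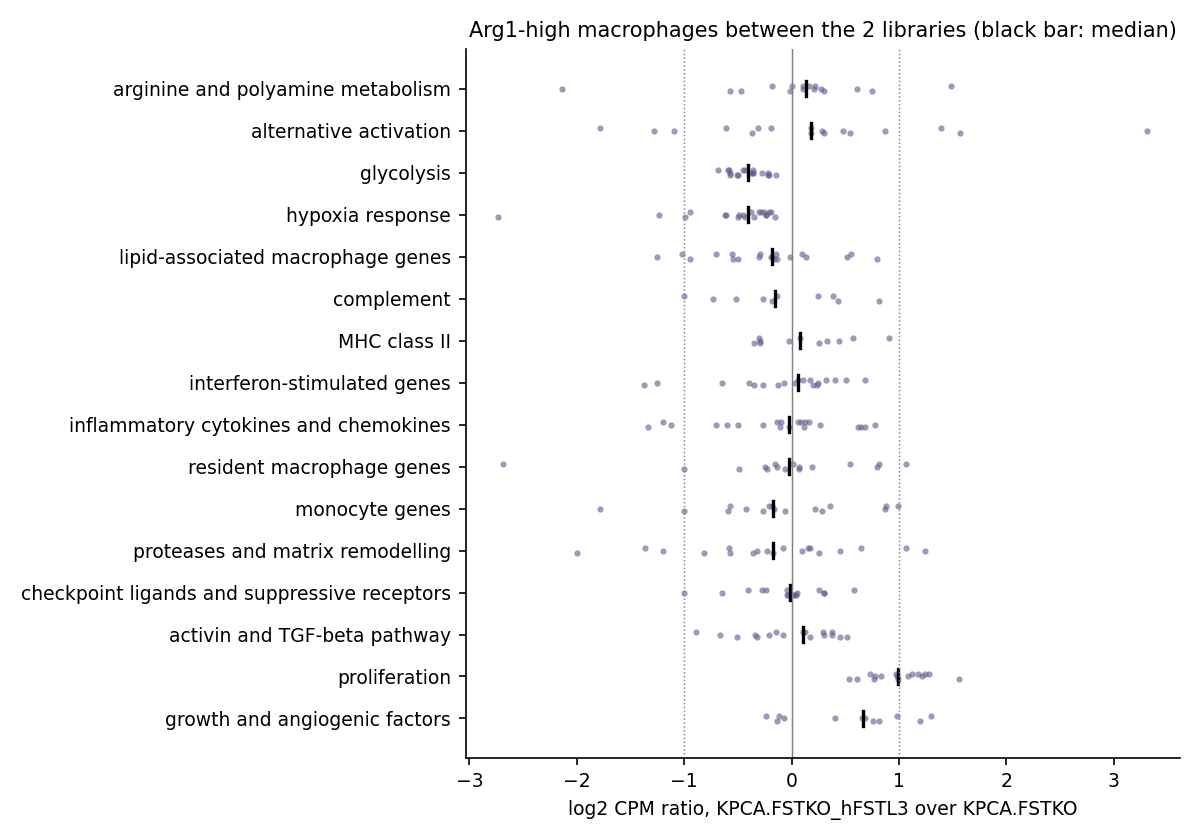
Log2 CPM ratio of KPCA.FSTKO_hFSTL3 over KPCA.FSTKO in Arg1-high macrophages for every measured gene of the 16 lists; each point is a gene, black bars are list medians and dotted lines mark a ratio of 2. Glycolysis and hypoxia genes lie left of 0 with medians of -0.40, and proliferation genes lie right of it with a median of 0.99.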

How the data were processed

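Droplet 3′ single-cell RNA libraries of omental tumors, 1 per genotype, were analysed from the deposited matrices. Per the labels and the study's methods, the authors aligned reads to mm10 and counted UMIs per gene and barcode with Cell Ranger (3.1.0 in the submitters' processing notes, 7.2.0 in the matrix headers); the deposited values are raw counts, which include all barcodes ahead of the cell filters the methods describe. The cell numbers the study states equal these unfiltered barcode numbers. No deposited cell annotation was used, and cell groups were rebuilt from counts.

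Counts were summed over barcodes per group and divided by the group total (CPM), for 32285 genes, with Python 3.11.15, numpy 2.4.6, pandas 2.3.3 and scipy 1.17.1. Intervals at 95% were Poisson for levels, Clopper-Pearson for shares and conditional binomial for ratios. A count of 0 was set to 3 UMIs for fold bounds. TMM factors came from edgeR 4.0.16 in R 4.3.3, used for scaling alone. Scripts were tested on simulated data. No doublet caller was run; leaving out barcodes with 10 or more UMIs of other cells' markers was an alternative. Named genes were the 12 largest ratios in each direction (5 between libraries), the members of 16 lists and the 6 markers; Mt2, Saa3, Vcam1, Rgcc, Tmem176a and Cd83 in the comparisons where they rank lower were named after their values were seen. Some genes that this rule names are not reported here. The list symbols Aldoa and Mx1 matched 2 and 0 rows and were left out. Positions are from the GENCODE annotation of GRCm38. The members, lists and comparisons were chosen with earlier results of these data known.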

Additional observations from a re-analysis of the deposited data

Results flagged for a closer look

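Ccl17, a chemokine of dendritic cells and alternatively activated macrophages, had opposite directions in the libraries. Members were below Arg1-low macrophages by a log2 ratio of -2.65 (-3.08 to -2.19) in the KPCA.FSTKO library. They were above them by at least 1.65 in KPCA.FSTKO_hFSTL3, where 114 of 116 UMIs were in 1 member. Col1a2, a fibroblast collagen, had log2 ratios of 1.43 (0.44 to 2.65) and -2.86 (-3.29 to -2.43). The beta globin Hbb-bs had 4.45 (2.90 to 6.72) and -1.25 (-1.63 to -0.85), and 80.3% of its UMIs in KPCA.FSTKO members were in 1 barcode. Lyve1, between the highest and lowest of the 4 Arg1 bins, had -1.02 (-1.43 to -0.63) in KPCA.FSTKO against 1.78 (1.09 to 2.53) in the other library. These differences between the libraries were not tested.

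A further 776 KPCA.FSTKO_hFSTL3 barcodes met the macrophage and Arg1 rules but carried pancreatic RNA above the limit, so that they enter no comparison here. They had a median of 8 Arg1 UMIs at a median depth of 27964.5 UMIs, and 66.4% had under 10. Their summed Arg1 was 332 CPM against 3831 CPM in the members, and C1qa 576 against 2830 CPM. Their median mitochondrial share was 11.5% and their median share of pancreatic genes 0.633%.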

How the results depend on the processing

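Alternatives for the KPCA.FSTKO_hFSTL3 contrast and the 4 bins of Arg1 share, and those on the interval, the top or deepest barcode, shared barcodes and no pancreatic limit, were chosen after seeing the data. The share of members in KPCA.FSTKO was 96.2% with 3 Arg1 UMIs, 91.7% with 10 and 96.8% after thinning with 2; in KPCA.FSTKO_hFSTL3 it was 77.4% with 10 UMIs, 80% with Arg1 at 0.05% of UMIs, 94.9% with a pancreatic limit of 0.1% and 72.7% with none.

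Against Arg1-low macrophages of KPCA.FSTKO, 496 genes were lower with 10 Arg1 UMIs, 2260 with at least 20 UMIs a gene and 237 without each gene's top barcode; 1117 were higher and 313 lower with TMM, 1323 and 2009 at a ratio of 1.5, and 313 were higher when the interval had to exclude no change. In KPCA.FSTKO_hFSTL3 the counts higher and lower were 516 and 380 with 3 Arg1 UMIs, 489 and 84 with TMM, 781 and 1048 with 20 UMIs a gene, 660 and 718 at 1.5, and 40 and 4 with no pancreatic limit; 500 were higher at a limit of 0.1%, and lower were 340 without barcodes with other cells' markers, 308 as the mean of barcode CPM and 65 without the top barcode. Between libraries, lower were 231 with 10 Arg1 UMIs, 240 at 0.05% and 366 at the 0.1% limit; higher and lower were 450 and 577 with 20 UMIs a gene, 614 and 440 at 1.5, and 1948 and 2058 with no pancreatic limit, and 87 were higher without the top barcode. Between the highest and lowest Arg1 bin, KPCA.FSTKO had 159 and 93 with TMM, 212 and 711 with 20 UMIs, 266 and 646 at 1.5, and 435 lower over all members; KPCA.FSTKO_hFSTL3 had 291 and 477, then 179 and 189 for the last 2 rules, 57 and 28 without the top barcode, and 170 and 94 over all members.

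Directions turned for 10 values that had been past a ratio of 2 or, for list medians, had an interval on 1 side of 0. Against Arg1-low macrophages of KPCA.FSTKO, Rsad2 had a log2 ratio of -0.36 with 10 Arg1 UMIs, the proliferation median was -0.25 at 0.05%, and Kirrel3 and Klf5 had 0.0062 and 0.016 without the top barcode. In KPCA.FSTKO_hFSTL3, Mrc1 had 0.0082 at 0.05% and 0.057 with no pancreatic limit. Between libraries, Cbr2 and Mgl2 had -0.57 and -0.46 with no pancreatic limit and Retnla -0.053 without the top barcode. The complement median between KPCA.FSTKO bins was 0.15 over all members. The causes were not tested. In 4 cases 0 UMIs on the Arg1-low side set no direction: Nos2 and Ankrd37 of KPCA.FSTKO_hFSTL3 at the 0.1% limit, Ccl17 there without the top barcode, and Hs3st1 of KPCA.FSTKO without barcodes with other cells' markers. Of the remaining gene and list values, 3428 kept direction and size, 880 kept direction and moved in size, and 270 that had been within a ratio of 2, or had a list interval reaching 0, changed sign; of the counts and shares, 100 stayed close and 54 moved. No paired analysis was possible because each genotype had 1 library. With 46 and 21 Arg1-low macrophages, genes with few UMIs on that side cannot be placed closely, and intervals leave out the variation between tumors.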
